A study of Mus musculus with 15 samples.

Results

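The innate lymphoid cell (ILC) progenitor, ILCP_WT, was compared with the all-lymphoid progenitor, ALP_WT, which stand at the end and the start of a path of sorted mouse bone marrow cells. The comparison uses 5 of the 15 RNA-seq libraries of the series: ILCP_WT has 2 libraries and ALP_WT has 3. ILCP_WT cells were Thy1+ and IL-7Ra+ and expressed the a4b7 integrin and the Tcf7 reporter. ALP_WT cells were a4b7-, Flt3high and IL-7Ra+. Both gates also took cells that lack lineage markers (Lin-) and carry Kit and 2B4. Both groups came from C57BL/6 mice of the genotype Tcf7EGFP/+, so the reporter allele is shared and does not differ between them. Each group has 1 library in batch 1, and batch 2 holds 1 ILCP_WT library and 2 ALP_WT libraries. The labels do not say which animals the libraries came from or whether animals were pooled, so each p-value reflects only how much these samples vary, which may be technical.

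ILCs are lymphocytes without rearranged antigen receptors that respond to cytokines in tissues. They arise in the bone marrow from progenitors that still can give B cells, T cells and dendritic cells. Along this path the transcription factors TCF-1, GATA-3, ID2, TOX and PLZF are switched on, and FLT3, the receptor that marks early lymphoid progenitors, is lost. ILCP cells have largely lost the other fates and can give several helper-like ILC types, each linked to its own transcription factors, such as RORα and GATA-3 for ILC2 and T-bet for ILC1.

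The values are log2 CPM (counts scaled to a common library total) as deposited, so 1 unit is a doubling, and levels are not per length and are compared only within a gene. The sequencing depth behind these values is unknown, which leaves them without a limit of detection. Many genes share the lowest value of their library, between -4.83 and -4.41. Where every library of a group is there, the gene is said to be listed at the lowest value and its fold is left out. The ILCP_WT libraries held 2124 and 2224 genes at the lowest value, against 1874, 1470 and 747 in ALP_WT. The 2 ILCP_WT libraries correlated across genes at r = 0.749, the ALP_WT pairs at 0.813 to 0.866, and ILCP_WT with ALP_WT libraries at 0.638 to 0.686. From Xist and Y-linked genes, 1 ALP_WT library (replicate 1) read as male and the other libraries of both groups as female.

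In ILCP_WT against ALP_WT, 1687 of 12572 tested genes changed, which is 13.4% (limma, Benjamini-Hochberg adjusted p under 0.05). Of these, 699 were higher in ILCP_WT (5.56% of genes tested) and 988 were lower (7.86%). A change of at least 1 log2 unit was found in 591 of the higher and 793 of the lower genes. The median log2 difference over all tested genes was -0.09. In 122 of the higher genes every ALP_WT library was at the lowest value, and in 208 of the lower genes every ILCP_WT library was. For the separate steps of the path, 3.21% of genes changed in EILP_WT against ALP_WT and 6.95% in ILCP_WT against EILP_WT, where EILP_WT is the intermediate early ILC progenitor and is Tcf7EGFPnull/+. These steps share libraries with the net comparison and are given below only beside it. Leaving out ILCP_WT replicate 1 gave 1312 changed genes and leaving out replicate 2 gave 1057; leaving out ALP_WT replicates 1, 2 and 3 gave 1289, 1150 and 1169. With the 5 libraries fitted alone, 403 genes changed, 376 of them among the 1687. Below, a named call held with each of these 5 libraries left out in turn, unless the libraries without which it was lost are named beside it. Many calls that held so did not pass with the 5 libraries fitted alone. Among them were Hhex, Il2rb, Ccr2, Cxcr5, Itgal, Itgb2, Dntt, Rag1, Satb1, Spi1, Bst2, Xcr1, Fcer1g and Cpa3. Others were Bid, Ckb, Rpl3, Rps19, Mcm7, Aurkb, Cdk4, Cdkn1a, Pfn1, Eno1, Prss57, Muc13, Tspan2, Alox5ap, Ckap4 and Snx9. Tcf7, Zbtb16, Id2, Gata3, Tox and Cd34 did pass there.

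**Figure D1:**
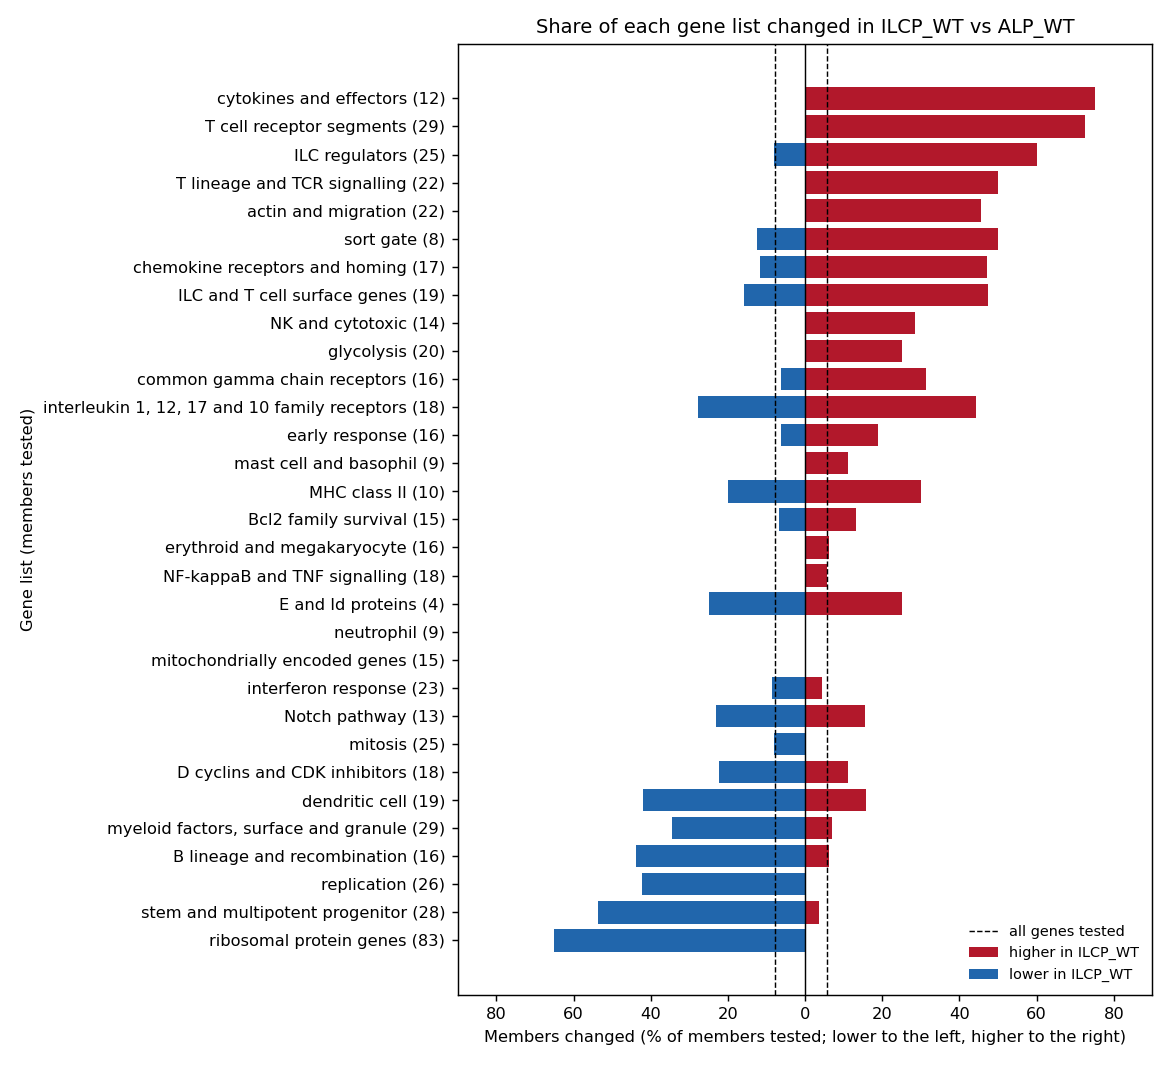
Percent of the tested members of each gene list that changed in ILCP_WT (n = 2) against ALP_WT (n = 3), lower to the left and higher to the right; dashed lines are the shares over all genes tested, 7.86% lower and 5.56% higher. The cytokine and effector, T cell receptor segment and ILC regulator lists extend furthest to the right, and ribosomal protein and stem and progenitor lists furthest to the left.

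The genes of the sort gate were read first, and they describe the sort rather than a finding. Tcf7, which encodes TCF-1, was 9.89 and 10.17 in ILCP_WT, against 2.54, 2.64 and 1.91 in ALP_WT. It lies on chromosome 11 at 52252371 to 52283014 (mm10). Itgb7, the integrin beta 7 chain, was 9.95 and 10.09 in ILCP_WT, against 6.59, 7.17 and 6.91 in ALP_WT. Thy1 was 4.99 and 4.85 in ILCP_WT, and in ALP_WT it was listed at -4.60, -4.83 and -4.41. Flt3 was 3.98 and -0.14 in ILCP_WT, against 10.98, 10.53 and 10.53 in ALP_WT. These 4 genes separated the groups in the direction of the gate without overlap. Kit had a log2 difference of 0.53 (SE 0.45), and Cd244, which encodes 2B4, of -1.46 (SE 0.55) and neither passed the test. Without ILCP_WT replicate 2, Cd244 did pass, as lower in ILCP_WT. Il7r was 10.58 and 10.84 in ILCP_WT, against 7.91, 8.95 and 7.89 in ALP_WT, and did not pass (limma adjusted p = 0.533), although the groups did not overlap. With the 5 libraries fitted alone, Il7r did pass (limma adjusted p = 0.0496). The fit pools the spread over all 15 libraries, and Il7r was -4.60, 6.34 and 7.58 in EILP_WT. Itga4, the integrin alpha 4 chain, differed by 0.62 (SE 0.19, limma adjusted p = 0.0475) and lost its call without any 1 of the 5 libraries.

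Many transcription factors of the ILC lineage were higher. Of 25 tested ILC regulators, 15 were higher and 2 lower in ILCP_WT, with a median log2 difference of 6.71, against -0.09 over all genes. The count of higher members was 8 without ILCP_WT replicate 2 and 10 to 15 without each of the other 4 libraries. Tcf7, in the gate, is 1 of the 15.

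Zbtb16 encodes PLZF, the factor that marks ILC-restricted progenitors. Zbtb16 was 6.62 and 7.32 in ILCP_WT, against -4.60, -4.83 and -4.53 in ALP_WT. The ALP_WT values lie at or beside the lowest value of their libraries, and the groups are separated by over 11 log2 units. Zbtb16 rose by 11.69 (SE 0.57, limma adjusted p = 2.33e-07). Id2 encodes an inhibitor of E proteins, the factors that drive B and T cell programmes. Id2 was 10.84 and 11.23 in ILCP_WT, against 3.76, 5.16 and 4.11 in ALP_WT, a rise of 6.71 (SE 0.40, limma adjusted p = 1.19e-06). Gata3, needed for all helper-like ILCs, was 9.48 and 10.14 in ILCP_WT, against -0.71, 3.58 and 2.90 in ALP_WT (8.11, SE 0.77, limma adjusted p = 4.97e-05). Tox, an HMG-box factor needed for early ILC progenitors, was 8.23 and 8.64 in ILCP_WT, against 3.34, 3.71 and 3.47 in ALP_WT (4.99, SE 0.26, limma adjusted p = 3.94e-07). Its relative Tox2 was 9.17 and 9.42 in ILCP_WT and listed at the lowest value in all 3 ALP_WT libraries (limma adjusted p = 0.000927). Zbtb16 lies on chromosome 9 at 48654297 to 48836222, Id2 on chromosome 12 at 25093799 to 25097140, Gata3 on chromosome 2 at 9857078 to 9890034 and Tox on chromosome 4 at 6686353 to 6991557.

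Other members of the list are known from single ILC types or from T cells. Bcl11b, required for T cell commitment and for ILC2, was 7.42 and 8.35 in ILCP_WT, against -4.60, -4.83 and -4.58 in ALP_WT (12.67, SE 1.51, limma adjusted p = 0.00026). Lef1, the close relative of TCF-1, was 7.26 and 7.74 in ILCP_WT, against -4.60, -4.83 and -3.86 in ALP_WT (12.01, SE 1.85, limma adjusted p = 0.00145). Both genes had every ALP_WT library near its lowest value. Rora, which encodes RORα, was 10.01 and 10.60 in ILCP_WT, against 2.49, 3.23 and -1.83 in ALP_WT (9.25, SE 2.11, limma adjusted p = 0.0133). The call of Rora was lost without either ILCP_WT library. Ahr, a ligand-activated factor that maintains ILC3, was 7.17 and 7.74 in ILCP_WT, against 4.70, 4.44 and 5.21 in ALP_WT (2.66, SE 0.55, limma adjusted p = 0.00872, lost without ILCP_WT replicate 2). Maf, Ikzf2 and Ikzf3 also passed with adjusted p-values of 0.0218, 0.0278 and 0.0185, and each lost its call without either ILCP_WT library and without at least 1 ALP_WT library. Runx3 rose by 0.92 (SE 0.22, limma adjusted p = 0.0183) and lost its call without ILCP_WT replicate 2 or ALP_WT replicate 3.

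Tbx21 and Eomes, factors of ILC1 and NK cells, did not pass. Tbx21, which encodes T-bet, was 4.94 and 4.93 in ILCP_WT and listed at the lowest value in all 3 ALP_WT libraries (limma adjusted p = 0.0831). Eomes was 4.78 and 4.92 in ILCP_WT, again with all 3 ALP_WT libraries at the lowest value (limma adjusted p = 0.0605). Neither gene overlapped between the groups, as did 22.4% of all tested genes in this direction, so separation of 2 and 3 libraries alone is common here. Ets1 was 10.92 and 11.06 in ILCP_WT, against 7.41, 7.01 and 6.44 in ALP_WT, and did not pass (limma adjusted p = 0.209). Sox4 fell by 1.76 (SE 0.18, limma adjusted p = 7.28e-05), with 6.85 and 6.57 in ILCP_WT, against 8.69, 8.24 and 8.33 in ALP_WT. Hhex, a homeobox factor of early progenitors, fell by 3.27 (SE 0.39, limma adjusted p = 0.000266). Among E proteins, Tcf4 fell by 2.28 (SE 0.35, limma adjusted p = 0.00157), whereas Tcf3 and Tcf12 had log2 differences of -0.17 and 0.20 and did not pass.

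**Figure D2:**
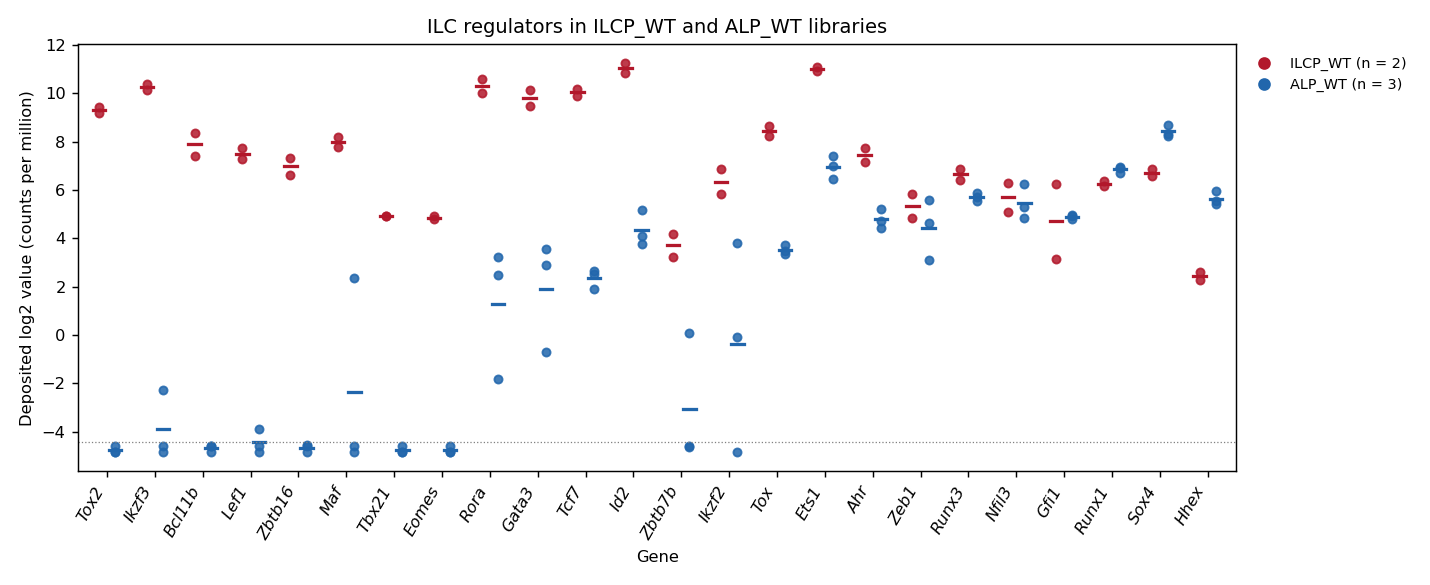
Deposited log2 value of 24 of the 25 tested ILC regulators in each ILCP_WT (red, n = 2) and ALP_WT (blue, n = 3) library; horizontal bars are group means and the dotted line lies at about the highest of the libraries' lowest values. In the 14 higher genes shown both ILCP_WT libraries lie above every ALP_WT library, and in Sox4 and Hhex both lie below. Such separation holds for 698 of all 699 higher genes and for all 988 lower genes.

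Promoters of 3 genes with large differences were read for a match to the TCF/LEF core CTTTGA and the RUNX core TGTGGT on either strand, because TCF-1 and LEF-1 are themselves among the factors that rose. Each window runs from 250 bases before to 50 after the annotated start, 5′ to 3′ on the gene's strand, from RefSeq on GRCm38.p6; capitals mark matches, TCAAAG being CTTTGA and ACCACA being TGTGGT on the other strand. The windows are chr9:123806227-123806526 (+) for Cxcr6, chr12:108003365-108003664 (-) for Bcl11b and chr5:147400440-147400739 (-) for Flt3.
Cxcr6: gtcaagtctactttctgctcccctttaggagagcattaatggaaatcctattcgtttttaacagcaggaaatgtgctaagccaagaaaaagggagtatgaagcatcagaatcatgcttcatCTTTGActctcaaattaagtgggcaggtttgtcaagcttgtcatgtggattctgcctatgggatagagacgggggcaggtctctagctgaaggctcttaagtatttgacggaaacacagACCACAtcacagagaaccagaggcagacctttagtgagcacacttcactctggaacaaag
Bcl11b: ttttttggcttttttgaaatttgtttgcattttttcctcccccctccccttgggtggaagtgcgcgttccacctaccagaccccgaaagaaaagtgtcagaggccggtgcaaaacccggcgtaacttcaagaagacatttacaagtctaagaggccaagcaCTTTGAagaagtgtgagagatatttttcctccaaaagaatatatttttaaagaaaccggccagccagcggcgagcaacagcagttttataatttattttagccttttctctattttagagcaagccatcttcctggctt
Flt3: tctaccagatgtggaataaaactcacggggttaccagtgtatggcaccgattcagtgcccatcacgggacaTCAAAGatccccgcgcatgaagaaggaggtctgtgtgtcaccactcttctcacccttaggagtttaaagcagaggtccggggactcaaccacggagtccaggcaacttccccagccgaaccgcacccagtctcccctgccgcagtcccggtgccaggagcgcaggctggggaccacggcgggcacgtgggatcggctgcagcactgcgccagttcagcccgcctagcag
These 3 genes are examples and do not stand for the other genes. All 3 windows held a TCF/LEF match, Cxcr6 also held a RUNX match, and the gene that was lower in ILCP_WT, Flt3, matched as the higher genes did. Of 11655 windows of 9140 matched genes, 12% held CTTTGA and 13.2% held TGTGGT. Only 9140 of 12572 tested genes matched a window, under 80%, so a comparison of the windows of higher and lower genes is void and is not given. A match describes letters and does not show binding.

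Cytokine receptors differed in both directions. Of 16 tested genes of the common gamma chain family, 5 were higher (31.2%) and 1 lower (6.25%), beside 5.56% and 7.86% over all genes tested. The lower share is thus near that of all genes. The counts were 3 higher and 2 lower without ILCP_WT replicate 2. Il2rg, the shared gamma chain itself, was 9.79 and 9.44 in ILCP_WT, against 6.45, 7.12 and 6.47 in ALP_WT (2.94, SE 0.25, limma adjusted p = 2.44e-05). Il2rb, the chain shared by the IL-2 and IL-15 receptors, was 8.44 and 8.21 in ILCP_WT, against 3.26, -4.83 and 0.28 in ALP_WT (8.55, SE 1.53, limma adjusted p = 0.00367). Jak1, a kinase that acts with receptors of this family, rose by 1.60 (SE 0.17, limma adjusted p = 0.000123). Il21r, the receptor for IL-21, lay at the lowest value in both ILCP_WT libraries, against 5.98, 5.95 and 5.77 in ALP_WT (limma adjusted p = 2e-05). Socs1, a feedback inhibitor of these receptors, rose by 3.86 (SE 0.77, limma adjusted p = 0.00679, lost without ILCP_WT replicate 2).

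Of 18 tested receptors of the interleukin 1, 12, 17 and 10 families, 8 were higher and 5 lower, with a median log2 difference of 0.19. The higher count was 4 without ILCP_WT replicate 2, 5 without ILCP_WT replicate 1, and 6 to 8 without each ALP_WT library; with a sex term in the fit, 4 were higher and 3 lower; the lower count was 3 without ALP_WT replicate 1 and 4 without each other library. Il18r1, the IL-18 receptor chain used to sort ILC progenitors in other work, was 8.13 and 7.96 in ILCP_WT, against 4.63, 2.45 and 3.55 in ALP_WT (4.35, SE 0.78, limma adjusted p = 0.00371). Il17rb, a chain of the IL-25 receptor, was 8.50 and 8.54 in ILCP_WT, against 4.83, 4.77 and 3.74 in ALP_WT (3.91, SE 0.49, limma adjusted p = 0.000346). Il23r, the IL-23 receptor of ILC3, was 4.91 and 5.09 in ILCP_WT and listed at the lowest value in all 3 ALP_WT libraries (limma adjusted p = 0.00394). Receptors of ILC2 and ILC3 were thus both higher in the same sorted population. Il1rl1, the IL-33 receptor, was 8.07 and 7.93 in ILCP_WT, against -4.60, 3.36 and 0.11 in ALP_WT (8.62, SE 2.07, limma adjusted p = 0.0171, lost without either ILCP_WT library or ALP_WT replicate 1).

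Lower receptors included Il1rap, the shared accessory chain for IL-1 and IL-33. Il1rap lay at the lowest value in both ILCP_WT libraries, against 5.25, 4.95 and 5.39 in ALP_WT (limma adjusted p = 6.4e-06). The partner chain Il1rl1 thus moved the other way. Il10ra and Il10rb, the IL-10 receptor chains, fell by 2.40 (SE 0.33, limma adjusted p = 0.000672) and 3.30 (SE 0.54, limma adjusted p = 0.00211). Ifngr1, an interferon gamma receptor chain, rose by 1.91 (SE 0.29, limma adjusted p = 0.00136), and Ifngr2 had a log2 difference of -0.74 and did not pass.

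Among 19 tested ILC and T cell surface genes, 9 were higher and 3 lower; the higher count was 3 without ILCP_WT replicate 2 and 8 to 9 without the other libraries, and the lower count was 1 without either ILCP_WT library or ALP_WT replicate 2. Thy1, in the gate, is 1 of the 9. Cd160 was 5.33 and 6.09 in ILCP_WT and listed at the lowest value in all 3 ALP_WT libraries (limma adjusted p = 0.00133). Pdcd1, which encodes the checkpoint receptor PD-1, was 9.34 and 9.91 in ILCP_WT, against 2.44, 4.81 and -2.36 in ALP_WT (7.99, SE 1.54, limma adjusted p = 0.00546, lost without ILCP_WT replicate 2). Icos, a costimulatory receptor, was 9.13 and 8.75 in ILCP_WT, against 3.83, 2.57 and 1.87 in ALP_WT (6.06, SE 1.48, limma adjusted p = 0.0185). The 2 ILCP_WT libraries lie over 4 units above the ALP_WT libraries for both genes. The Icos call was lost without either ILCP_WT library and without ALP_WT replicate 2 or 3.

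Of 17 tested chemokine receptors and homing molecules, 8 were higher and 2 lower, with 5 to 9 higher when 1 library was left out (5 without ILCP_WT replicate 2) and 1 lower without ILCP_WT replicate 2 or any ALP_WT library. Cxcr6, the CXCL16 receptor of ILC progenitors, was 10.34 and 9.86 in ILCP_WT and listed at the lowest value in all 3 ALP_WT libraries (limma adjusted p = 0.00968, lost without ILCP_WT replicate 1). It lies on chromosome 9 at 123806475 to 123811760. Ccr2, a receptor for monocyte chemoattractants, was 10.12 and 10.29 in ILCP_WT, against 4.64, 1.38 and 4.98 in ALP_WT (6.45, SE 0.83, limma adjusted p = 0.000421). Cxcr5, the CXCL13 receptor that guides cells to lymphoid follicles, rose by 9.74 (SE 1.49, limma adjusted p = 0.00138). Itgal and Itgb2, which form the integrin LFA-1, rose by 1.74 (SE 0.27, limma adjusted p = 0.00154) and 2.24 (SE 0.34, limma adjusted p = 0.00136).

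Of 12 tested cytokines and effectors, 9 were higher and 0 lower, and 5 to 7 were higher when 1 library was left out, with 5 without either ILCP_WT library. The list held 22 genes, and those without deposited values include Il4, Il5, Il13, Il17a, Il22, Ifng, Areg and Csf2. These counts therefore do not describe the main ILC cytokines, and the list also holds receptors such as Tnfrsf25. The median log2 difference was 6.72. Ltb, which encodes lymphotoxin beta of lymphoid tissue inducer cells, was 9.52 and 9.40 in ILCP_WT, against 4.59, 3.85 and 2.98 in ALP_WT (5.65, SE 0.61, limma adjusted p = 0.000115). Lta, the partner chain, was 5.57 and 6.05 in ILCP_WT and listed at the lowest value in all 3 ALP_WT libraries (limma adjusted p = 0.00138). Tnfrsf25, the receptor for TL1A, was 6.95 and 5.64 in ILCP_WT and likewise at the lowest value in ALP_WT (limma adjusted p = 0.00124). Both lymphotoxin chains were therefore higher in each ILCP_WT library than in any ALP_WT library. Arg1, an arginase found in ILC progenitors and ILC2, was 8.30 and 9.68 in ILCP_WT, against 2.09, -4.83 and -4.14 in ALP_WT (11.22, SE 2.73, limma adjusted p = 0.0181). The Arg1 call was lost without either ILCP_WT library and without ALP_WT replicate 2 or 3.

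T cell receptor loci are known to be transcribed in some ILCs. Of 29 tested T cell receptor segments, 21 were higher and 0 lower in ILCP_WT, with 14 to 20 higher when 1 library was left out and 14 without ILCP_WT replicate 1. Trbc1, a constant segment of the beta locus, was 9.10 and 9.23 in ILCP_WT, against -1.83, -4.83 and -4.67 in ALP_WT (13.01, SE 1.09, limma adjusted p = 1.99e-05). Tcrg-C4, a constant segment of the gamma locus, was 9.15 and 9.43 in ILCP_WT and listed at the lowest value in all 3 ALP_WT libraries (limma adjusted p = 0.000134). In 19 of the 29 segments every ALP_WT library was at the lowest value. Some segments of a locus resemble each other, so how reads were shared among them is uncertain. Others lie close together: Trbd1, Trbj1-1 to Trbj1-7 and Trbc1 lie on 1 strand between 41533201 and 41539881 of chromosome 6. The 21 higher segments are therefore not a count of separate genes. Trbc1 lies on chromosome 6 at 41538218 to 41539881 and Tcrg-C4 on chromosome 13 at 19344558 to 19352756.

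Of 22 tested T lineage and receptor signalling genes, 11 were higher and 0 lower. Bcl11b, counted above among the ILC regulators, is 1 of the 11. The higher count was 4 without ILCP_WT replicate 2, 6 without ILCP_WT replicate 1 and 7, 6 and 9 when ALP_WT replicates 2, 3 and 1 were left out. Txk, a kinase of T cell receptor signalling, was 6.62 and 7.43 in ILCP_WT and listed at the lowest value in all 3 ALP_WT libraries (limma adjusted p = 0.00138). Lck, Fyn and Zap70, kinases of the same pathway, had log2 differences of 0.38, 1.05 and 5.51 and did not pass. Cd3e and Cd3g, subunits of the receptor complex, were 4.16 and 3.67, and 4.39 and 5.29, in ILCP_WT and listed at the lowest value in all 3 ALP_WT libraries. Their calls (limma adjusted p = 0.0493 and 0.0166) were lost without either ILCP_WT library and without ALP_WT replicate 2 or 3, and that of Cd3e also without ALP_WT replicate 1. The 4 measured T cell markers (Cd3e, Cd3d, Cd3g and Cd4) summed to 55.6 and 58.5 CPM in ILCP_WT, against 0.0824 to 25.9 in ALP_WT. Their part in these differences was not tested. In bulk samples, fewer cells of a type and less RNA per cell cannot be told apart.

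Of 14 tested NK and cytotoxic genes, 4 were higher and 0 lower, with 2 higher without ILCP_WT replicate 1. Fcer1g, a signalling adaptor, rose by 1.31 (SE 0.23, limma adjusted p = 0.00336) and Ctsw, a protease of cytotoxic lymphocytes, by 3.40 (SE 0.51, limma adjusted p = 0.00116). Gzma and Prf1, which encode granzyme A and perforin, lay at the lowest value in both ILCP_WT libraries. Ncr1, an activating NK receptor, was 6.29 and 7.03 in ILCP_WT and listed at the lowest value in all 3 ALP_WT libraries (limma adjusted p = 0.0102, lost without either ILCP_WT library). The sum of 4 NK markers, which include Ncr1, was 111 to 193 CPM in ILCP_WT, against 2.63 to 22.5 in ALP_WT.

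Many genes of stem and multipotent progenitors fell. Of 28 tested members, 15 were lower and 1 higher, with a median log2 difference of -2.70; the lower count was 12 to 13 when 1 library was left out. Flt3, in the gate, is 1 of the 15. The higher member, Mycn, rose by 1.12 (SE 0.30, limma adjusted p = 0.0305) and lost its call without any 1 of the libraries except ALP_WT replicate 3. Cd34, the sialomucin of stem and progenitor cells, was 5.22 and 3.68 in ILCP_WT, against 10.49, 10.10 and 10.49 in ALP_WT (-6.03, SE 0.31, limma adjusted p = 3.37e-07). Hoxa9, a homeobox gene of stem and progenitor cells, was -0.64 and -0.14 in ILCP_WT, against 5.55, 6.01 and 5.85 in ALP_WT (-6.09, SE 0.72, limma adjusted p = 0.000255). Mef2c, a factor of lymphoid priming, was 4.25 and 5.71 in ILCP_WT, against 9.55, 8.96 and 9.18 in ALP_WT (-4.31, SE 0.43, limma adjusted p = 7.28e-05). For these 3 genes the ALP_WT libraries lay within 1 unit of each other and well above both ILCP_WT libraries. Myb, a progenitor transcription factor, was 6.20 in both ILCP_WT libraries, against 9.09, 8.80 and 9.02 in ALP_WT (-2.79, SE 0.20, limma adjusted p = 6.4e-06). Myc, which drives growth, fell by 2.49 (SE 0.26, limma adjusted p = 8.8e-05), and the chromatin organiser Satb1 by 2.62 (SE 0.36, limma adjusted p = 0.000672). Runx2 and Bcl11a, factors also used by plasmacytoid dendritic cells, fell by 3.27 (SE 0.47, limma adjusted p = 0.000945) and 3.64 (SE 0.48, limma adjusted p = 0.000503).

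Some genes of the B lineage and of antigen receptor recombination fell. Of 16 tested members, 7 were lower and 1, Lef1, was higher, with 6 to 7 lower when 1 library was left out. Dntt encodes TdT, the enzyme that adds bases at receptor joints. Dntt was -4.55 and 6.10 in ILCP_WT, against 11.87 in all 3 ALP_WT libraries (-10.85, SE 1.95, limma adjusted p = 0.00376). The value in ALP_WT is the highest in the table, which quantile normalization sets equal in every library, and the 2 ILCP_WT libraries differ by over 10 units. Rag1, a subunit of the recombinase, lay at the lowest value in both ILCP_WT libraries, against 4.26, 2.88 and 1.98 in ALP_WT (limma adjusted p = 0.00182). Ighm, the constant gene of the mu heavy chain, was 8.50 and 8.93 in ILCP_WT, against 11.18, 10.60 and 10.43 in ALP_WT (-2.06, SE 0.22, limma adjusted p = 0.000107). Blnk, an adaptor of B cell receptor signalling, lay at the lowest value in both ILCP_WT libraries, against 7.48, 8.48 and 7.20 in ALP_WT (limma adjusted p = 0.011, lost without ILCP_WT replicate 1). The B lineage markers measured, Cd79b and Ebf1, summed to 79.4 to 81.5 CPM in ILCP_WT, against 71.8 to 97.9 in ALP_WT.

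Of 13 tested Notch pathway genes, 2 were higher and 3 lower. Notch1, the receptor of T cell commitment, was 4.88 and 4.74 in ILCP_WT, against 8.27, 7.74 and 7.59 in ALP_WT (-2.98, SE 0.64, limma adjusted p = 0.0102, lost without ILCP_WT replicate 2 or ALP_WT replicate 1). Its target Hes1 was 4.86 and 5.41 in ILCP_WT, against 2.49, 1.61 and -2.36 in ALP_WT (4.60, SE 1.29, limma adjusted p = 0.0349, lost without either ILCP_WT library or ALP_WT replicate 3). The receptor and this target thus differed in opposite directions. The higher count was 0 without either ILCP_WT library or ALP_WT replicate 3 and 1 without ALP_WT replicate 2, and the lower count was 1 without ILCP_WT replicate 2 or ALP_WT replicate 1.

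**Figure D3:**
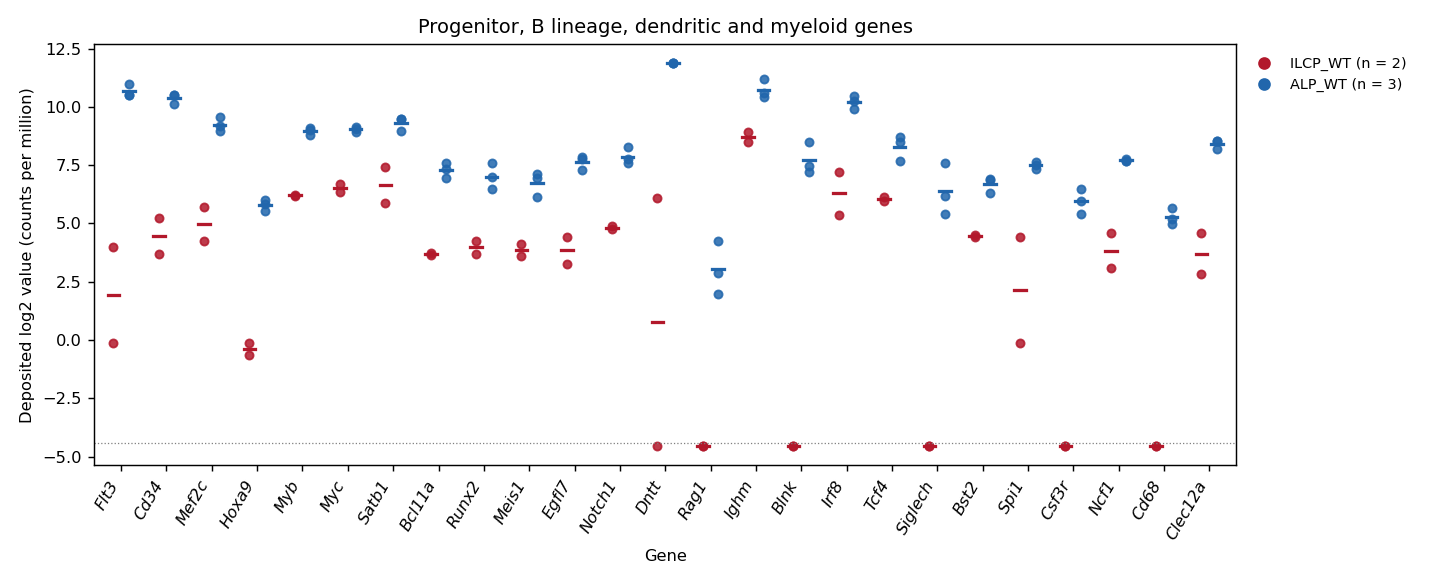
Deposited log2 value of 25 progenitor, B lineage, dendritic and myeloid genes, chosen among those that were lower, in each ILCP_WT (red, n = 2) and ALP_WT (blue, n = 3) library; bars are group means and the dotted line lies at about the highest of the libraries' lowest values. Every ILCP_WT point lies below every ALP_WT point of its gene, as in all 988 lower genes, so the choice of genes fixed this. The ILCP_WT libraries differ most for Dntt, at -4.55 and 6.10.

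Dendritic cell genes differed in both directions. Of 19 tested members, 8 were lower and 3 higher, with 7 to 8 lower when 1 library was left out. Irf8, the factor that specifies dendritic cells and monocytes, was 7.21 and 5.37 in ILCP_WT, against 10.47, 10.24 and 9.92 in ALP_WT (-4.11, SE 0.35, limma adjusted p = 1.99e-05). Bst2, a surface marker of plasmacytoid cells, fell by 2.25 (SE 0.37, limma adjusted p = 0.00204). Siglech, another such marker, lay at the lowest value in both ILCP_WT libraries, against 5.39, 7.59 and 6.17 in ALP_WT (limma adjusted p = 0.0226, lost without either ILCP_WT library and without ALP_WT replicate 2 or 3). The lower members include Flt3, in the gate. The higher members were Id2, Batf3, whose call was lost without ILCP_WT replicate 2, and Xcr1. Xcr1, a chemokine receptor of cross-presenting dendritic cells, was 3.24 and 6.03 in ILCP_WT and listed at the lowest value in all 3 ALP_WT libraries (limma adjusted p = 0.00222). The summed dendritic markers (Siglech, Zbtb46 and Itgax) were 0 to 25.2 CPM in ILCP_WT, against 81.2 to 237 in ALP_WT, and Siglech and Itgax were at the lowest value in both ILCP_WT libraries.

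Genes of MHC class II presentation split. Of 10 tested, 3 were higher and 2 lower. H2-DMa, a chain of the peptide-loading chaperone, was 5.82 and 6.16 in ILCP_WT, against 8.40, 8.96 and 8.56 in ALP_WT (-2.69, SE 0.29, limma adjusted p = 0.000101). H2-Ob, a chain of its inhibitor, fell by 2.25 (SE 0.32, limma adjusted p = 0.000927). H2-Aa, a chain of the presenting molecule, was 8.17 and 7.31 in ILCP_WT, against 2.95, 5.57 and 1.98 in ALP_WT (4.09, SE 0.87, limma adjusted p = 0.00966, lost without ILCP_WT replicate 2). H2-Eb1 and Cd74 were the other higher members; H2-Eb1 lost its call without ILCP_WT replicate 1 or ALP_WT replicate 1 or 3, and Cd74 without either ILCP_WT library or ALP_WT replicate 1 or 3. The higher count was 1 without any of ILCP_WT replicate 1, ILCP_WT replicate 2, ALP_WT replicate 1 and ALP_WT replicate 3.

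Of 29 tested myeloid genes, 10 were lower and 2 higher, with 7 to 11 lower when 1 library was left out and 1 higher without each library but ALP_WT replicate 2. The higher members were Fcer1g and Cyba, an oxidase subunit whose call was lost without any 1 of the libraries except ALP_WT replicate 2. Spi1, which encodes PU.1, the factor of myeloid and early lymphoid fates, was 4.43 and -0.14 in ILCP_WT, against 7.33, 7.63 and 7.52 in ALP_WT (-5.57, SE 0.77, limma adjusted p = 0.000705). Csf3r, the G-CSF receptor, lay at the lowest value in both ILCP_WT libraries, against 5.39, 5.96 and 6.49 in ALP_WT (limma adjusted p = 2.13e-06). Ncf1, a subunit of the phagocyte oxidase, was 4.58 and 3.09 in ILCP_WT, against 7.69, 7.76 and 7.68 in ALP_WT (-3.98, SE 0.31, limma adjusted p = 1.19e-05). In each of these genes both ILCP_WT libraries lay below the ALP_WT libraries, whose values agreed to about 1 unit. The granule genes Mpo and Elane did not pass, with log2 differences of -2.66 and -0.13. The 5 myeloid markers, Mpo among them, summed to 155 to 811 CPM in ILCP_WT, against 1073 to 2046 in ALP_WT. Of 9 neutrophil genes 0 passed in limma, and 0 had an unadjusted p under 0.05; of 15 mitochondrially encoded genes 0 passed, and 2 had an unadjusted p under 0.05. S100a8, S100a9, Ltf, Camp and Ngp were above 2 in ALP_WT replicates 1 and 2 and at or beside the lowest value in ALP_WT replicate 3.

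Genes of other blood lineages gave few calls, to be read beside 5.56% higher and 7.86% lower over all genes tested. Cpa3, a mast cell protease also found in early progenitors, was 6.73 and 6.49 in ILCP_WT, against 2.06, 1.76 and 3.49 in ALP_WT (4.15, SE 0.42, limma adjusted p = 8.08e-05). It was the 1 call among 9 mast cell and basophil genes (11.1%). The basophil genes Mcpt8 and Prss34 were 7.51 and 8.83 in ILCP_WT replicate 1 and at the lowest value in replicate 2. The mast cell and basophil markers, Cpa3 among them, summed to 89.9 to 302 CPM in ILCP_WT, against 10.2 to 22.8 in ALP_WT. Of 16 erythroid and megakaryocyte genes, 1 was higher (6.25%, near the share over all genes tested). It was Pf4, a platelet chemokine (limma adjusted p = 0.037), whose call was lost without any 1 of the 5 libraries.

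Many ribosomal protein genes fell by a small amount. Of 83 tested, 54 fell and 0 rose, and 80 had a negative log2 difference, with a median of -0.82. The count of lower members was 25 and 22 without ILCP_WT replicates 1 and 2, and 51, 30 and 36 without ALP_WT replicates 1, 2 and 3. With the 5 libraries fitted alone, 1 passed. Rpl3, of the large subunit, was 9.31 and 9.18 in ILCP_WT, against 10.01, 10.13 and 10.22 in ALP_WT (-0.87, SE 0.14, limma adjusted p = 0.00171). Rps19, of the small subunit, was 8.61 and 8.73 in ILCP_WT, against 9.60, 9.62 and 9.55 in ALP_WT (-0.92, SE 0.16, limma adjusted p = 0.00267). The spread among libraries of a group was about 0.2 units or less for both genes. Many of these genes have near-identical pseudogenes, so how reads were shared with them is uncertain.

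A part of the DNA replication genes fell. Of 26 tested, 11 fell and 0 rose, and all 26 had a negative log2 difference, with a median of -0.91. The lower count was 9 and 4 without ILCP_WT replicates 1 and 2, and 8, 5 and 4 without ALP_WT replicates 1, 2 and 3. Mcm6 and Mcm7, subunits of the replicative helicase, fell by 1.00 (SE 0.16, limma adjusted p = 0.0017) and 1.30 (SE 0.19, limma adjusted p = 0.000893). Mcm7 was 8.82 and 8.19 in ILCP_WT, against 9.74, 9.73 and 9.90 in ALP_WT. Of 25 mitosis genes, 2 fell (median -0.59), which is 8%, beside 7.86% over all genes tested; 3 were lower without ILCP_WT replicate 1 and 1 without each other library. Mki67, a proliferation marker, had a log2 difference of 0.30 and did not pass. Aurkb, a mitotic kinase, fell by 1.71 (SE 0.29, limma adjusted p = 0.00265). Cdk4, the kinase of D cyclins, fell by 1.07 (SE 0.20, limma adjusted p = 0.00451). Cdkn1a, the inhibitor p21, also fell, with 3.54 and 3.83 in ILCP_WT, against 5.42, 6.32 and 5.74 in ALP_WT (-2.12, SE 0.29, limma adjusted p = 0.000721). Rbl2, the pocket protein p130 of resting cells, rose by 1.96 (SE 0.36, limma adjusted p = 0.00429).

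A part of the actin regulators and of the glycolysis genes rose. Of 22 actin and migration genes, 10 rose and 0 fell, with 5 higher without ILCP_WT replicate 2 and 7 without each other library. Tmsb4x, which encodes the actin-binding thymosin beta 4, was 11.48 and 11.43 in ILCP_WT, against 9.65, 9.81 and 9.43 in ALP_WT (1.83, SE 0.12, limma adjusted p = 3.63e-06). Pfn1, which encodes profilin, rose by 0.88 (SE 0.11, limma adjusted p = 0.000465). S100a4, a calcium-binding protein of motile cells, was 6.91 and 6.81 in ILCP_WT, against 0.34, -0.99 and -1.23 in ALP_WT (7.46, SE 0.99, limma adjusted p = 0.00054). Of 20 glycolysis genes, 5 rose and 0 fell, with 3 higher without either ILCP_WT library. Aldoa, which encodes aldolase, rose by 1.52 (SE 0.17, limma adjusted p = 0.00018) and Eno1, which encodes enolase, by 0.88 (SE 0.14, limma adjusted p = 0.00173). Gapdh and Pgk1, enzymes of the same pathway, had log2 differences of -0.09 and 0.05 and did not pass.

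**Figure D4:**
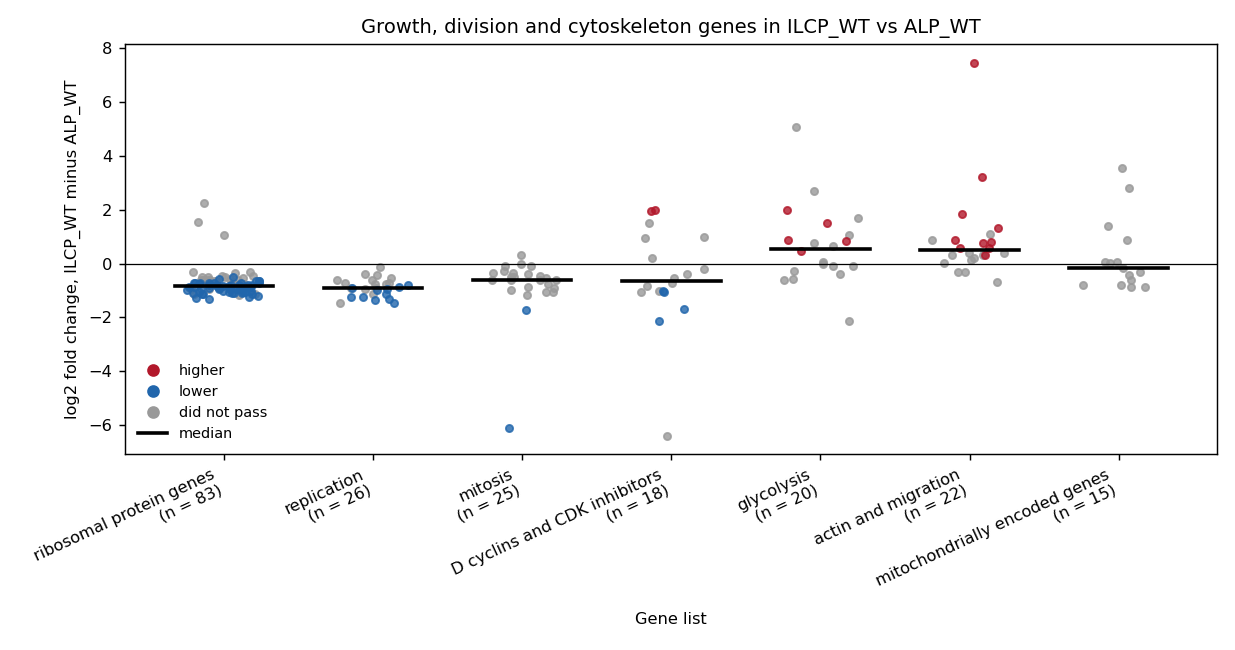
Log2 fold change, ILCP_WT (n = 2) minus ALP_WT (n = 3), of each tested member of 7 lists; each point is a gene, red where higher, blue where lower and grey where the test was not passed, and black bars are medians. Ribosomal protein and replication genes lie in narrow bands around their medians of -0.82 and -0.91, apart from 3 ribosomal protein genes above 0 that did not pass, and actin and glycolysis genes have medians of 0.50 and 0.56.

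Few survival genes of the Bcl2 family changed. Bcl2 was 9.36 and 9.59 in ILCP_WT, against 7.85, 7.73 and 7.74 in ALP_WT (1.72, SE 0.18, limma adjusted p = 0.000101). Bid, which promotes cell death, was 4.91 and 4.80 in ILCP_WT, against 6.68, 7.80 and 7.29 in ALP_WT (-2.40, SE 0.31, limma adjusted p = 0.000467). Exons of Bid overlap those of Bcl2l13 on the other strand, and the sources used here do not state that counting used strand. Other named genes also overlap exons on the other strand, among them Cdk4, Itga4, Rbl2, H2-DMa, Mcm7 and Ncf1. Il2rg and S100a4 overlap exons of another gene on the same strand. Of 15 Bcl2 family members, 2 were higher (13.3%) and 1 lower (6.67%), beside 5.56% and 7.86% over all genes tested. Btg1, an antiproliferative gene of resting lymphocytes, rose by 2.76 (SE 0.26, limma adjusted p = 5.21e-05). Of 18 NF-κB and TNF signalling genes 1, Nfkb2, was higher (5.56%, the same as over all genes tested). The NF-κB count was 2 without ALP_WT replicate 2 and 0 without each other library. Of 23 interferon response genes 1 was higher (4.35%) and 2 were lower (8.7%), each near the share over all genes tested. The interferon list had 4 lower without ILCP_WT replicate 1 and 1 lower without each other library, and 0 higher without ILCP_WT replicate 2.

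The largest differences among well-expressed genes, chosen by a fixed rule over all tested genes, were read next. The 12 largest rises were taken among genes where neither group had every library at its lowest value. They held the regulators Ikzf3, Bcl11b, Lef1 and Zbtb16, the signalling genes Rasgrp1 and Skap1, Cd226, Arg1, and Spon2, Ckb, Podnl1 and Chad. Ckb, which encodes a creatine kinase, was 8.90 and 9.19 in ILCP_WT, against -4.60, 0.48 and -3.86 in ALP_WT (11.82, SE 1.21, limma adjusted p = 8.42e-05). Chad, which encodes a matrix protein of cartilage, was 6.43 and 6.84 in ILCP_WT, against -4.60, -4.83 and -3.86 in ALP_WT (11.11, SE 0.83, limma adjusted p = 8.12e-06). Spon2, which encodes a secreted matrix protein, was 6.87 and 7.54 in ILCP_WT, against -4.60, -4.83 and -4.14 in ALP_WT (limma adjusted p = 0.000529). The size of these differences depends on the lowest value, since ALP_WT libraries lie at or beside it. The calls of Ikzf3, Rasgrp1, Skap1, Arg1 and Podnl1 were lost without either ILCP_WT library, and that of Cd226 without ILCP_WT replicate 2. Without ALP_WT replicate 1 those of Ikzf3 and Rasgrp1 were lost, without replicate 2 those of Ikzf3, Skap1 and Arg1, and without replicate 3 those of Rasgrp1, Skap1 and Arg1.

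Among genes at the lowest value in all 3 ALP_WT libraries, the 8 highest in ILCP_WT included Cxcr6, Stab2, Tox2, Rxrg, Pxdc1, Nmur1 and Adam8. Stab2, a scavenger receptor better known from sinusoidal endothelium, was 9.88 and 10.10 in ILCP_WT (limma adjusted p = 0.00141). Rxrg, a retinoid X receptor, was 7.93 and 8.43 (limma adjusted p = 0.000319). Nmur1, the neuromedin U receptor through which neurons act on ILC2, was 7.64 and 7.46 (limma adjusted p = 0.00429). Pecam1, the endothelial marker measured, was 7.67 and 8.21 in ILCP_WT, against 8.48, 8.27 and 7.58 in ALP_WT, and did not pass.

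The 12 largest falls, taken among the same kind of genes, were Dntt, Esr1, Flt3, Prss57, Muc13, Ppfia4, Tspan2, Alox5ap, Msrb3, Ifitm1, Ckap4 and Snx9. Alox5ap, needed to make leukotrienes, was 3.81 and -4.54 in ILCP_WT, against 7.07, 7.34 and 6.98 in ALP_WT (-7.81, SE 1.37, limma adjusted p = 0.00324). Esr1, which encodes oestrogen receptor alpha, was -4.55 and -0.14 in ILCP_WT, against 7.08, 6.13 and 6.39 in ALP_WT (-9.34, SE 2.27, limma adjusted p = 0.0182, lost without ILCP_WT replicate 1 or ALP_WT replicate 2 or 3). All but Flt3 had 1 ILCP_WT library at the lowest value. Prss57 overlaps exons of Fstl3 on the other strand. The calls of Ppfia4, Msrb3 and Ifitm1 were lost without ILCP_WT replicate 2 and without ALP_WT replicate 2, those of Ppfia4 and Msrb3 also without ALP_WT replicate 3, and that of Msrb3 without ALP_WT replicate 1. Among genes at the lowest value in both ILCP_WT libraries, the 8 highest in ALP_WT were Gcnt2, Blnk, Sh2d5, Il12a, Kcng1, Tmem119, Cox6a2 and Drc7. Il12a, the p35 chain of IL-12, was 7.60, 7.52 and 6.84 in ALP_WT (limma adjusted p = 5.26e-07), and Tmem119, a membrane protein known from microglia, 7.45, 7.32 and 6.75 (limma adjusted p = 8.12e-06). The Gcnt2 call was lost without either ILCP_WT library.

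The net change was reached at different points of the path. The early ILC progenitor was also sorted as sEILP_WT (2 libraries, Zbtb16low Flt3high) and cEILP_WT (3 libraries, Zbtb16high Flt3low), from Tcf7GFP Zbtb16GFP mice, so strain and stage cannot be told apart between these and the end stages. The Tcf7 reporter is in the ILCP_WT gate, so the net rise of Tcf7 describes the sort. Tcf7 averaged 2.36 in ALP_WT, 10.11 in sEILP_WT, 11.18 in cEILP_WT and 10.03 in ILCP_WT. Tox averaged 3.51, 7.46, 8.54 and 8.44 in the same order, and Il2rb -0.43, 7.27, 7.38 and 8.32. These means lay near the ILCP_WT level by sEILP_WT or cEILP_WT. Bcl11b averaged -4.67 in ALP_WT, -4.06 in sEILP_WT, 4.53 in cEILP_WT and 7.88 in ILCP_WT, and Tox2 -4.75, 0.01, 8.36 and 9.29. Cxcr6 averaged -4.75, -1.40, -1.86 and 10.10, Il18r1 3.54, 5.14, 3.80 and 8.04, and Icos 2.76, -0.11, 1.15 and 8.94. The means of these last 3 genes were highest in ILCP_WT by 2 log2 units or more. Libraries of 1 stage differed widely for some of these means. Tox2 was -4.72 and 4.75 in the sEILP_WT libraries, and Icos -2.32 and 2.11. Cxcr6 was 2.02 and -4.83 in sEILP_WT and -4.77, 3.34 and -4.14 in cEILP_WT.

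Losses were spread in the same way. Flt3 is in the gates of ALP_WT, sEILP_WT and cEILP_WT, so its course up to cEILP_WT describes the sort. Flt3 averaged 10.68 in ALP_WT, 9.12 in sEILP_WT, 7.31 in cEILP_WT and 1.92 in ILCP_WT, and Cd34 10.36, 10.17, 9.07 and 4.45. Spi1 averaged 7.49, 7.70, 6.66 and 2.14. In ILCP_WT, the 2 libraries were 3.98 and -0.14 for Flt3 and 4.43 and -0.14 for Spi1. Rag1 averaged 3.04 in ALP_WT and lay at or beside the lowest value in the other 3 stages, at -4.77, -4.81 and -4.55. Notch1 averaged 7.87, 5.96, 4.89 and 4.81. Some genes with little net difference differed on the way: Nfil3, an early ILC factor, was 5.09 and 6.30 in ILCP_WT, against 5.28, 4.85 and 6.25 in ALP_WT (0.19, SE 0.58, limma adjusted p = 0.886), and averaged 9.37 in sEILP_WT and 7.66 in cEILP_WT. For Nfil3, limma gave a difference of 2.98 in EILP_WT against ALP_WT (adjusted p = 0.0104) and of -2.79 in ILCP_WT against EILP_WT (adjusted p = 0.0135).

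**Figure D5:**
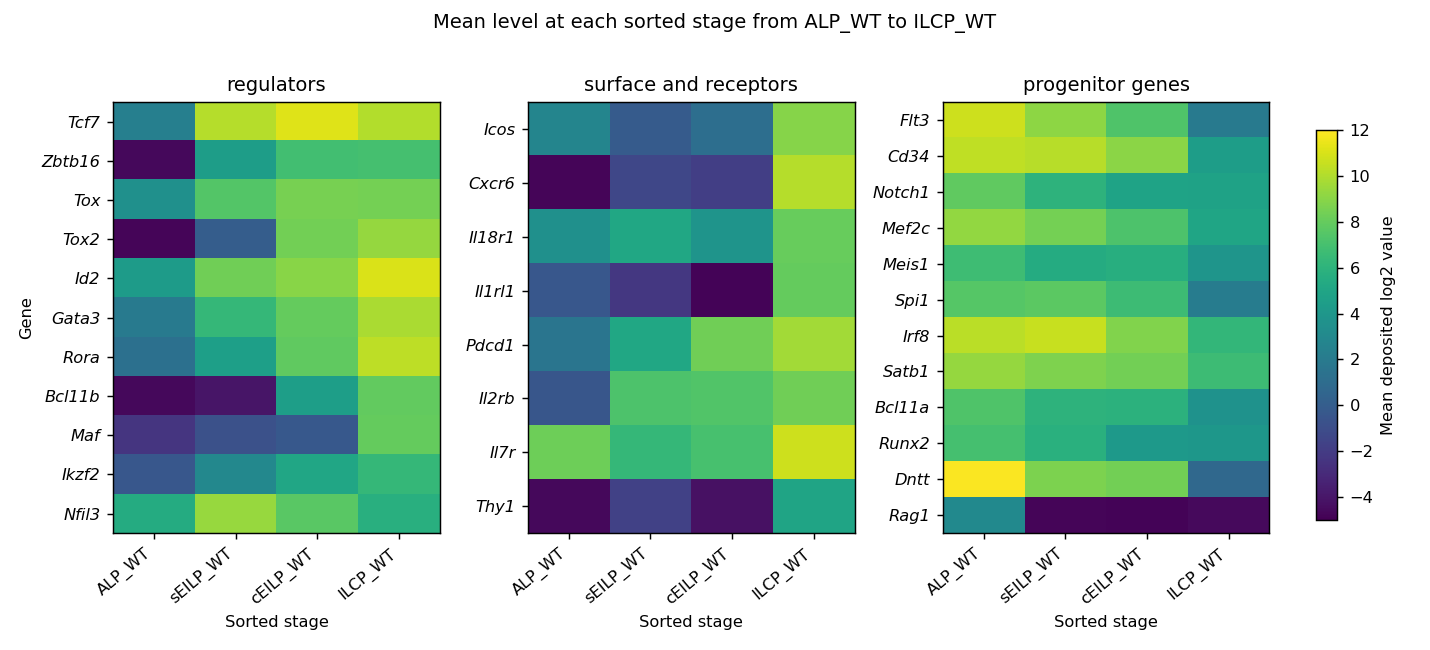
Mean deposited log2 value of 31 genes at each sorted stage, ALP_WT (n = 3), sEILP_WT (n = 2), cEILP_WT (n = 3) and ILCP_WT (n = 2), in 3 panels; the colour scale runs over -5 to 12 log2 units. Tcf7 and Tox are bright by sEILP_WT or cEILP_WT, Cxcr6, Icos and Il1rl1 are bright in ILCP_WT, and Flt3 and Cd34 stay bright until cEILP_WT. Tcf7, Flt3, Zbtb16, Thy1 and Il7r belong to sort gates, so their courses partly describe the sort.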

How the data were processed

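Bulk RNA-seq of sorted bone marrow progenitors was analysed from 1 deposited table of 12798 genes. Its values are log2 CPM values that the authors normalized by quantiles across libraries; the deposited log2 unit was read from the values and labels. Reads were handled with bcl2fastq 2.17, STAR 2.5.2b, RSEM 1.2.23 and limma on mm10, per the submitters' processing notes; the annotation is not given in the sources used here. Libraries were made with the SMARTer Ultra Low Input and Nextera XT kits, per the labels' protocols, which do not mark strand. Quantile normalization gives every library the same distribution, so a change of total RNA is not visible. Raw counts were not used here, so depth is unknown. The table also has 24 unnamed empty columns, which were not used.

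The 12572 genes kept reached 0 on the log2 scale in 2 or more libraries. limma 3.58.1 in R 4.3.3 fitted group and batch over all 15 libraries (8 residual degrees of freedom, trended variance), and p-values were adjusted by Benjamini-Hochberg over all genes tested, with a threshold of 0.05. The 2 ILCP_WT libraries share their spread with the other groups. Coordinates are from GENCODE on GRCm38 (mm10). The fit was also run on simulated normal values, with changes added only to genes above the median mean. That simulation had no batch effect and no shared lowest value, so it does not cover genes listed at the lowest value.

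Besides the 8 gate genes and list members, genes were named by rule. They had a change of at least 1 log2 unit, no overlap of libraries and a mean in the higher group above the median there. Predicted genes and receptor segments were left out. The 12 largest rises and falls were taken where neither group was wholly at its lowest value. Where a whole group was at its lowest value, the 8 highest in each direction were taken. Members and lists were chosen with earlier results of these data known. Alternatives were other filters, batch terms, normalizations and variance models, a sex term read from Xist and Y-linked genes, and leaving out each library. Results for some genes are not reported here.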

Additional observations from a re-analysis of the deposited data

How the results depend on the processing

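All 1687 calls kept their direction under every alternative that tested them. This was largely fixed beforehand, since the groups did not overlap in 698 of the 699 higher and all 988 lower genes. The count changed was 1634 to 1861 with other filters, other normalizations or no batch term. It was 403 (222 higher, 181 lower) with the 5 libraries fitted alone, 863 (362 and 501) within batch 1, and 0 (0 and 0) within batch 2, where limma gave 3253 genes an unadjusted p under 0.05. Library quality weights gave 1124 (434 higher), a sex term 1309 (513 and 796) and no intensity trend 1194 (523 and 671). Without the trend, 23 ribosomal protein, 4 replication and 6 actin genes passed, and with the sex term 5 mitosis genes did. Without EILP_WT replicate 3 it was 1867 (774 and 1093). Without 1 of the 5 libraries it was 1057 to 1312, with 337 to 532 higher and 633 to 905 lower. Higher genes were 41.4% of calls, and 31.0% and 31.9% without ILCP_WT replicates 1 and 2. With replicate number as a block, 1442 changed (620 higher, 822 lower, 1397 shared). Same-numbered libraries had correlations of deviations from the group mean of -0.03 and -0.01. With 2 ILCP_WT libraries, their deviations mirror each other, so these values cannot decide whether the numbers pair libraries. Kit reversed within batch 1 (-0.37) and Cd244 within batch 2 (0.030), and neither was called. Of 940 values of 47 named genes under alternatives, 135 lost their call, 3 gained one and 2 reversed. The causes were not tested. With 2 ILCP_WT libraries and no counts, differences of genes near the lowest value are imprecise.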
